A study of Drosophila melanogaster with 6 samples.

Results

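Long non-coding RNAs (lncRNAs) and antisense RNAs (asRNAs) were examined in sorted intestinal progenitor cells of Drosophila melanogaster. They were taken as every gene whose symbol carries an lncRNA or asRNA prefix and whose raw reads summed to 60 or more over the 6 libraries. This gave 200 genes, 170 lncRNAs and 30 asRNAs, out of 2403 genes with such a prefix and 17806 named genes in all. The summed reads chose the genes, so their abundance is given as a description only; the RNAs were thus chosen by their raw reads summed over both genotypes. Of the 2203 genes with a prefix that fell below the limit, 1101 had 0 reads and 1102 had 1 to 59 reads.

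A lncRNA is a transcript that encodes no known protein, and it may act as a scaffold for nuclear bodies, as the precursor of small RNAs, or through the act of its transcription next to other genes. An asRNA is read from the strand opposite a protein-coding gene and overlaps it. In Drosophila the best studied examples are Hsromega, which nucleates nuclear speckles that hold hnRNP proteins, the roX RNAs of dosage compensation in males, and the long precursors of microRNAs.

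The cells were GFP-positive intestinal progenitors, the stem cells and their undifferentiated daughters, sorted after elastase treatment of gastrointestinal tracts of adult females. Each replicate came from 100 flies reared at 29 °C for 6 days, with 30000 to 50000 cells sorted, and total RNA was sequenced after depletion of rRNA. The genotypes were Patr1, with 3 libraries, and esgTS, with 3 libraries; both groups are adult females that carry the GFP used for the sort. The labels do not say how Patr1 alters the gene, which cells its driver reaches, or whether the replicates were collected separately, so p-values measure the spread between these libraries, which may be technical. The series asks which RNAs depend on P-bodies, cytoplasmic granules of repressed mRNAs and decay factors.

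Libraries held 2035676 to 2958607 reads over named genes, and the 200 RNAs took 0.763% to 0.869% of them in Patr1 and 0.811% to 0.883% in esgTS. The mRNA of Patr-1 itself, whose protein promotes decapping within P-bodies, was at 35.9 ± 3.38 CPM (reads scaled to library size, mean ± SD) in Patr1 and 220.1 ± 12.2 CPM in esgTS (n = 3 each, log2 fold change -2.62, edgeR adjusted p = 1.56e-09). Of 7 progenitor markers, 3 were higher and 3 lower in Patr1, where 25.5% of all genes tested were higher and 23.9% lower. The summed level of these markers was 4150 to 4810 CPM in Patr1 and 3950 to 4280 CPM in esgTS.

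All 200 RNAs are annotated as non-coding in the BDGP6 annotation, 196 under the same symbol and 4 under an older one. Their exons summed to between 201 and 21710 bases, and 101 had a single exon. Reads of the 200 RNAs came to 128900 in all, 91.6% of the reads of every gene with a prefix. Hsromega alone held 33.4% of them. The summed level of the 30 asRNAs was 287.7, 268.0 and 251.2 CPM in Patr1, against 452.4, 465.7 and 424.7 CPM in esgTS, with libraries given by replicate number here and throughout. Every Patr1 library thus lay below every esgTS library for the asRNAs. The summed level of the 170 lncRNAs was 7879 ± 689 CPM in Patr1 and 7921 ± 491 CPM in esgTS (SD, n = 3 each), a difference within the spread of either genotype.

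None of the 3 well studied lncRNAs among the 200 (Hsromega, let7C and noe) passed the test. Hsromega was at 3399, 2534 and 3074 CPM in Patr1, against 2421, 2393 and 2984 CPM in esgTS. The genotypes overlapped, and its log2 fold change of 0.21 ± 0.13 (SE) did not pass the test across all genes (edgeR quasi-likelihood, Benjamini-Hochberg adjusted p = 0.220). Without Patr1 replicate 2, the lowest of its group, the log2 fold change was 0.32 with an edgeR adjusted p of 0.0436. The lncRNA let7C, the precursor of the microRNAs let-7, miR-100 and miR-125, was at 8.58, 6.50 and 3.97 CPM in Patr1, against 7.94, 6.98 and 10.7 CPM in esgTS (log2 -0.43 ± 0.33 SE, edgeR adjusted p = 0.301). The lncRNA noe was at 26.2, 24.3 and 17.7 CPM in Patr1, against 29.7, 25.9 and 23.4 CPM in esgTS (log2 -0.21 ± 0.18 SE, edgeR adjusted p = 0.359). For each of these 3 the genotypes overlapped.

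These 3 were the members of a list of 25 well studied lncRNAs, of which 17 had a row in the table and 5 had 0 reads in all libraries (bxd, iab4, CRG, enrr and TS1). Of the others below the limit, dntRL was the one tested, at 5.23 ± 0.88 CPM in Patr1 and 1.53 ± 0.54 CPM in esgTS (n = 3 each), and it was higher in Patr1 (log2 1.73 ± 0.40 SE, edgeR adjusted p = 0.00364). The dosage compensation RNAs had few reads: roX1 had 5 in Patr1 and 24 in esgTS, and roX2 had 2 in Patr1 and 2 in esgTS. The piRNA cluster transcript flam had 3 reads in Patr1 and 2 in esgTS.

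Per length, the most abundant of the 200 was CR34335, a single-exon RNA of 361 bases in an intron of DIP-alpha, which encodes a cell surface protein of the immunoglobulin superfamily. It reached 513.1, 351.8 and 299.6 RPKM (CPM per 1000 bases) in Patr1, against 403.4, 338.6 and 451.9 RPKM in esgTS (log2 -0.05 ± 0.16 SE, edgeR adjusted p = 0.841). Its host DIP-alpha, read from the same strand, was lower in Patr1, at 253.2 ± 79.8 CPM against 807.3 ± 132.2 CPM in esgTS (n = 3 each, edgeR adjusted p = 1.35e-05). CR40469, a 214-base RNA of the X chromosome, was at 540.0, 366.3 and 338.3 RPKM in Patr1, against 82.2, 83.8 and 109.2 RPKM in esgTS. It was 4.49-fold higher in Patr1 by fitted fold change, and the genotypes did not overlap (log2 2.17 ± 0.19 SE, edgeR adjusted p = 1.90e-06). CR42862 was at 227.1, 190.6 and 229.9 RPKM in Patr1, against 277.2, 232.1 and 243.5 RPKM in esgTS. All Patr1 libraries of CR42862 lay below all esgTS libraries, by a margin too small to pass the test (log2 -0.22 ± 0.11 SE, edgeR adjusted p = 0.114). With library totals in place of TMM factors it passed (log2 -0.26, edgeR adjusted p = 0.0308).

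CR43144, an RNA of 569 bases, was the next most abundant per length, at 284.3 ± 41.1 RPKM in Patr1 and 14.998 ± 1.33 RPKM in esgTS (SD, n = 3 each). Hsromega, the longest of the 200, stood at 138.3 ± 20.1 RPKM in Patr1 and 119.7 ± 15.4 RPKM in esgTS. The RNA CR32865 of the alphagamma-element, a repeat at the Hsp70 locus whose copies may share reads, was at 136.3, 77.4 and 68.4 CPM in Patr1, against 67.6, 55.5 and 113.4 CPM in esgTS. Patr1 replicate 1 and esgTS replicate 3 were the high libraries, and the genotypes overlapped (log2 0.24 ± 0.27 SE, edgeR adjusted p = 0.473).

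**Figure D1:**
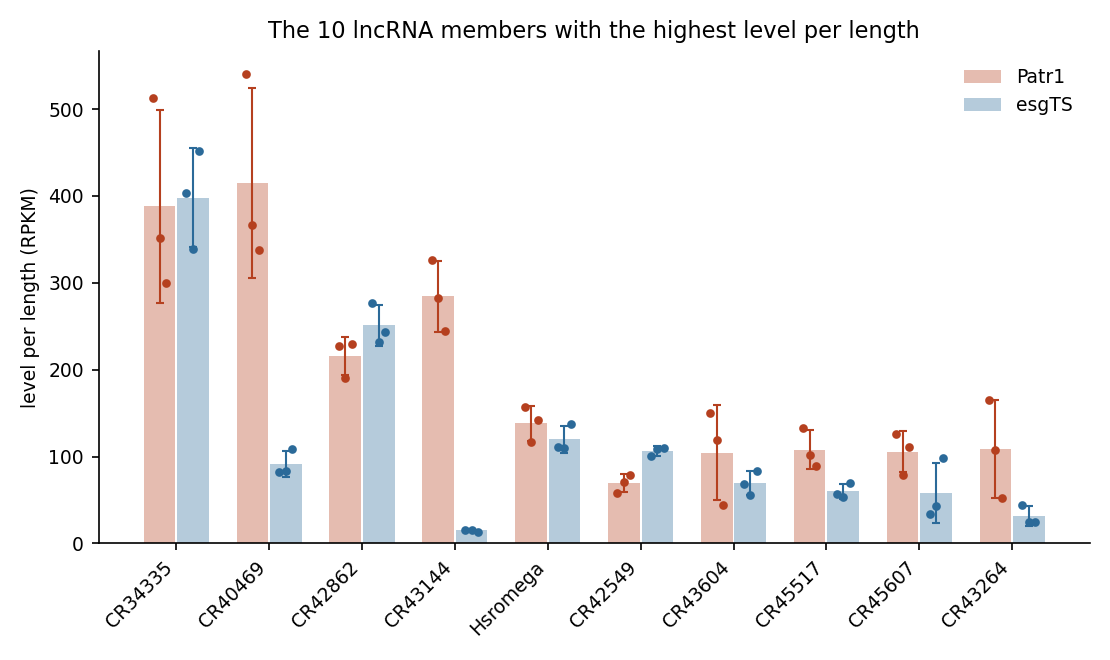
Level per length (RPKM, linear axis) of the 10 lncRNAs with the highest mean; bars are genotype means, error bars the SD over 3 libraries, and points the libraries. CR40469 and CR43144 stand out, at 414.9 and 284.3 RPKM in Patr1 and 91.7 and 14.998 RPKM in esgTS.

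Of the 200 RNAs, 198 were tested. In Patr1, 39 were higher and 70 lower, and 89 did not pass an edgeR adjusted p of 0.05. The share past the test was 55.1%, where over all 7927 genes tested it was 49.4%, with 25.5% higher and 23.9% lower. The median log2 fold change was -0.36 over the tested RNAs and 0.01 over all genes tested. The genotypes did not overlap for 123 of the 198 (44 with Patr1 above and 79 with Patr1 below), which is 62.1%, and for 57.3% of all genes tested (29.6% above and 27.7% below). In bulk RNA from sorted cells, fewer cells of a type and less RNA per cell cannot be told apart.

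The median absolute log2 fold change of the called RNAs was 1.28, against 0.65 for all called genes. It was 4.07 for called RNAs that reached the filter on low reads in Patr1 only and 0.97 for those that reached it in all 6 libraries. By summed reads, it was 1.52 for called RNAs with 60 to 99 reads and 0.66 for those with 1000 or more. Called RNAs of middle depth lay between these values. The RNAs and all genes were not matched for read depth, and the part of depth in the gap between them was not tested. Over 8-fold changes were 16 rises and 1 fall, where 2.32% of all genes tested rose and 0.378% fell by that much. Of the 16 rises, 15 were of RNAs that reached the filter in Patr1 only and 1 reached it in all 6 libraries. Over 4-fold changes were 21 rises and 3 falls, where 3.89% of all genes tested rose and 1.26% fell by that much. Over 2-fold changes were 31 rises and 41 falls, where 7.83% of all genes tested rose and 7.24% fell by that much. The filter on low reads weighs on these counts, since an RNA of low level that reached it in 1 genotype only was let in by the genotype where it is high. Of the 198, 129 reached it in all 6 libraries (17 higher, 49 lower), 26 in Patr1 only (22 higher), 33 in esgTS only (21 lower), and 10 through a mix of libraries (0 called). With a filter on the summed reads, which does not look at genotype, all 200 were tested, and 39 were higher and 71 lower. The 200 were themselves chosen by summed reads, so this filter left none of them out. RNAs that reached the first filter in 1 genotype only thus stayed in, and these counts cannot show how much such RNAs weigh.

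**Figure D2:**
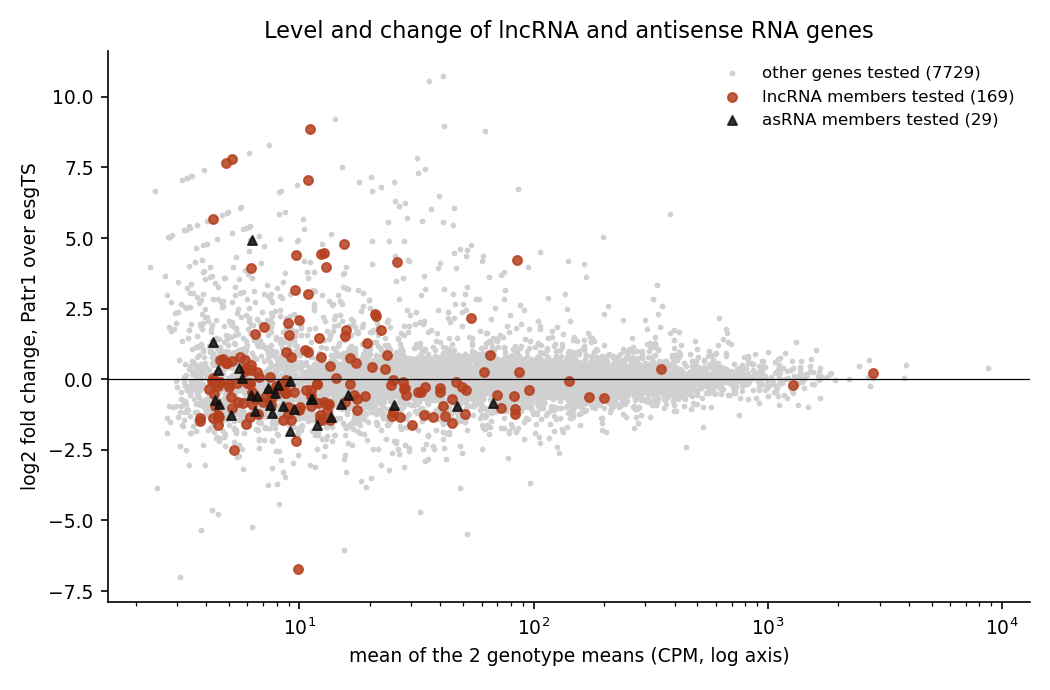
Log2 fold change (Patr1 over esgTS) against the mean of the 2 genotype means (CPM, log axis) for every gene tested. Grey points are 7729 other genes, circles 169 lncRNAs and triangles 29 asRNAs; the RNAs spread from -6.71 to 8.87, with most of the asRNAs below 0.

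LncRNAs that carry a microRNA gene formed a set, called microRNA precursors here by position alone. Each of 16 carries at least 1 microRNA gene on its span and strand, 21 microRNA genes in all. This grouping was made from the annotation after the values had been seen, and it has no test. In 14 of them a microRNA gene lies wholly within the exons (3 higher and 8 lower in Patr1). In Patr1, 3 of the 16 were higher, 8 were lower and 5 did not pass, with a median log2 fold change of -0.54, where 25.5% of all genes tested were higher and 23.9% lower. The counts are of the long RNA. Of the 19 microRNA genes with a row in the table, 18 had 0 reads and mir-31b had 8. Whether the counting left out reads that overlap several genes is not stated, so these zeros do not show that the hairpins were absent, and levels of RNAs that share exon bases with other genes may lack such reads. Mature microRNAs were not measured.

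CR46194, which holds mir-281-1 and mir-281-2, was at 17.2, 14.03 and 13.2 CPM in Patr1, against 44.5, 42.9 and 50.2 CPM in esgTS, and fell most (log2 -1.64 ± 0.16 SE, edgeR adjusted p = 4.08e-06). It shares 38.3% of its exon bases with other genes, the coding genes Oda (ornithine decarboxylase antizyme) and SmD3 (a spliceosomal Sm protein) among them, and Oda did not pass (502.0 ± 62.0 CPM in Patr1 and 533.5 ± 52.3 CPM in esgTS, edgeR adjusted p = 0.513). CR43650, the precursor of mir-8, was at 4.04, 5.48 and 5.30 CPM in Patr1, against 13.5, 14.6 and 12.6 CPM in esgTS (log2 -1.43 ± 0.26 SE, edgeR adjusted p = 0.000709). CR44206, with mir-184, was at 21.2, 26.4 and 24.7 CPM in Patr1, against 66.3, 65.8 and 47.9 CPM in esgTS (log2 -1.31 ± 0.16 SE, edgeR adjusted p = 2.67e-05). In all 3 of these the highest Patr1 library lay below the lowest esgTS library.

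CR31044, which holds mir-279 and mir-996, was at 47.4, 57.2 and 43.3 CPM in Patr1, against 130.8, 101.7 and 118.0 CPM in esgTS (log2 -1.23 ± 0.13 SE, edgeR adjusted p = 7.01e-06). CR43651, with mir-14, a microRNA known to restrain cell death, was at 42.4, 51.0 and 50.8 CPM in Patr1, against 102.8, 89.0 and 99.6 CPM in esgTS (log2 -1.005 ± 0.11 SE, edgeR adjusted p = 9.61e-06). Both stood in Patr1 at less than the lowest esgTS value, without overlap. CR43459, with mir-34 and mir-277, was at 155.1 ± 4.14 CPM in Patr1 and 246.0 ± 11.2 CPM in esgTS (n = 3 each, log2 -0.66, edgeR adjusted p = 1.88e-05). CR43857, with mir-275, was at 65.3 ± 10.1 CPM in Patr1 and 99.8 ± 16.4 CPM in esgTS (n = 3 each, log2 -0.61, edgeR adjusted p = 0.00273). CR45910, with mir-1000, was lower in Patr1 as well (log2 -0.71, edgeR adjusted p = 0.00880), though not by DESeq2 (adjusted p = 0.0526).

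The bantam precursor CR43334, from which a growth-promoting microRNA is made, was higher in Patr1. Its level was 423.4, 392.3 and 370.3 CPM in Patr1, against 296.1, 306.9 and 311.0 CPM in esgTS (log2 0.38 ± 0.08 SE, edgeR adjusted p = 0.00222). The other rises were CR43270, with mir-958, at 35.05 ± 6.42 CPM in Patr1 and 7.08 ± 1.82 CPM in esgTS (n = 3 each, log2 2.30, edgeR adjusted p = 6.21e-06), and CR43314, with mir-bft, at 11.2 ± 6.06 CPM in Patr1 and 3.02 ± 0.63 CPM in esgTS (n = 3 each, log2 1.84, edgeR adjusted p = 0.00322). Beside let7C and Hsromega, those that did not pass were CR42651 (mir-10, log2 -0.46, edgeR adjusted p = 0.137), CR31451 (mir-9381, log2 0.59, edgeR adjusted p = 0.167) and CR43836 (mir-31b, log2 0.78, edgeR adjusted p = 0.0538). CR42651 passed without Patr1 replicate 1 (log2 -0.66, edgeR adjusted p = 0.0323) and without esgTS replicate 1 (log2 -0.70, edgeR adjusted p = 0.0181), and CR43836 passed without Patr1 replicate 3 (log2 0.95, edgeR adjusted p = 0.0367).

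**Figure D3:**
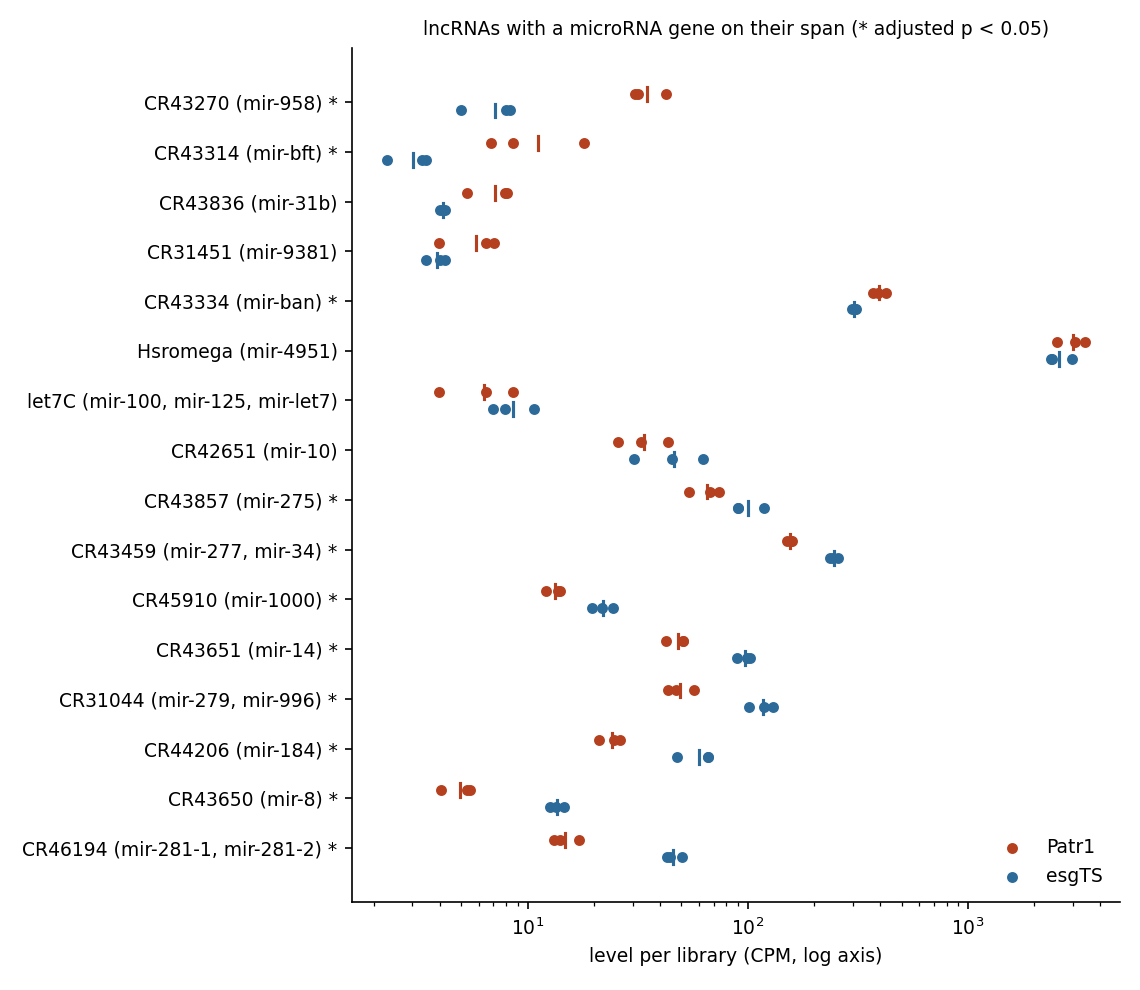
Level per library (CPM, log axis) of the 16 lncRNAs with a microRNA gene on their span and strand, named in brackets; points are libraries, ticks genotype means, and a star marks an edgeR adjusted p under 0.05. From CR43857 down, the 8 starred RNAs have lower Patr1 than esgTS levels, and the starred CR43270, CR43314 and CR43334 have higher ones.

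The largest rises were of RNAs with almost no reads in esgTS. CR43942, a 904-base RNA of 2 exons in an intron of CG40470 on 3L, was at 19.2, 25.3 and 22.1 CPM in Patr1, with 0 reads in each esgTS library. Against a floor of 3 counts over the esgTS group it was at least 64.2-fold higher (edgeR adjusted p = 1.06e-06). CR44895, on the X, was at 9.59, 12.7 and 8.83 CPM in Patr1 and likewise had 0 esgTS reads, so that it was at least 30.1-fold higher (edgeR adjusted p = 1.12e-05). CR44525, a single-exon RNA of 1215 bases on 3L, was at 10.1, 8.90 and 10.2 CPM in Patr1 with 0 esgTS reads, and was at least 27.3-fold higher (edgeR adjusted p = 9.25e-06). These 3 were the members with 0 reads in a genotype, and none had 0 reads in Patr1.

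Another 3 had 1 to 3 esgTS reads. CR43941, the neighbour of CR43942 in CG40470, was at 20.2, 24.0 and 21.2 CPM in Patr1, and its 158 Patr1 reads against 1 esgTS read gave a ratio of 188 (exact 95% counting interval 33.2 to 7463; edgeR adjusted p = 3.44e-07). For CR43768, on the X, 59 Patr1 reads stood against 1 esgTS read, which gave a ratio of 70.1 (12.1 to 2816; edgeR adjusted p = 1.35e-05). For the asRNA CR43875, 86 Patr1 reads stood against 3 esgTS reads, which gave a ratio of 34.1 (11.3 to 168.4; edgeR adjusted p = 8.57e-06). Counting intervals and floors cover counting error only. These RNAs were chosen for their large rises, so lower ends above 1 follow from that choice and give no support of their own. The upper ends are set by the 1 to 3 esgTS reads.

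CR45973, a 3289-base RNA of 3L, was at 28.3, 34.9 and 26.9 CPM in Patr1, against 1.38, 1.00 and 0.77 CPM in esgTS, a 27.4-fold rise by fitted fold change (log2 4.78 ± 0.31 SE, edgeR adjusted p = 1.40e-07). It shares 13.9% of its exon bases with CG13248 on the other strand, which stood at 6.96 ± 0.99 CPM in Patr1 and 3.72 ± 1.75 CPM in esgTS (n = 3 each, edgeR adjusted p = 0.0574) and passed without esgTS replicate 3 (log2 1.33, edgeR adjusted p = 0.0171). CR44510 was at 29.3, 23.6 and 20.7 CPM in Patr1, against 1.04, 1.33 and 0.77 CPM in esgTS (log2 4.47 ± 0.33 SE, edgeR adjusted p = 5.21e-07). The 8 largest rises were taken from RNAs whose genotypes do not overlap, so the lack of overlap among them is set by that choice.

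The falls were smaller, apart from 1. CR46123, a single-exon RNA of 368 bases in an intron of Myo81F on 3R, had 0, 0.34 and 0 CPM in Patr1, against 19.0, 21.3 and 18.4 CPM in esgTS. This was 1 read in Patr1 against 167 in esgTS, a ratio of esgTS over Patr1 of 141 (exact 95% counting interval 24.9 to 5583; edgeR adjusted p = 5.86e-07). Its host, an unconventional myosin gene, had too few reads to be tested, at 0.41 ± 0.45 CPM in Patr1 and 0.23 ± 0.40 CPM in esgTS.

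CR45158 was at 3.03, 1.71 and 0 CPM in Patr1, against 7.59, 11.6 and 7.66 CPM in esgTS (log2 -2.51 ± 0.54 SE, edgeR adjusted p = 0.00211). CR46268, which shares 55.5% of its exon bases with CG17490 on the same strand, was at 4.54, 4.11 and 1.77 CPM in Patr1, against 17.6, 13.6 and 16.5 CPM in esgTS (log2 -2.17 ± 0.32 SE, edgeR adjusted p = 0.000134). CG17490 itself had 0 reads in Patr1 and 1 read in esgTS. CR44913, in an intron of DIP-iota, was at 1.01, 2.74 and 2.65 CPM in Patr1, against 8.28, 6.98 and 5.36 CPM in esgTS (log2 -1.62 ± 0.39 SE, edgeR adjusted p = 0.00470). CR45029 was at 4.04, 2.74 and 2.21 CPM in Patr1, against 9.32, 7.64 and 9.57 CPM in esgTS (log2 -1.57 ± 0.33 SE, edgeR adjusted p = 0.00189). The rest of the 8 largest falls were CR46194, described above, and the asRNAs CR45804 and CR44992, described below.

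**Figure D4:**
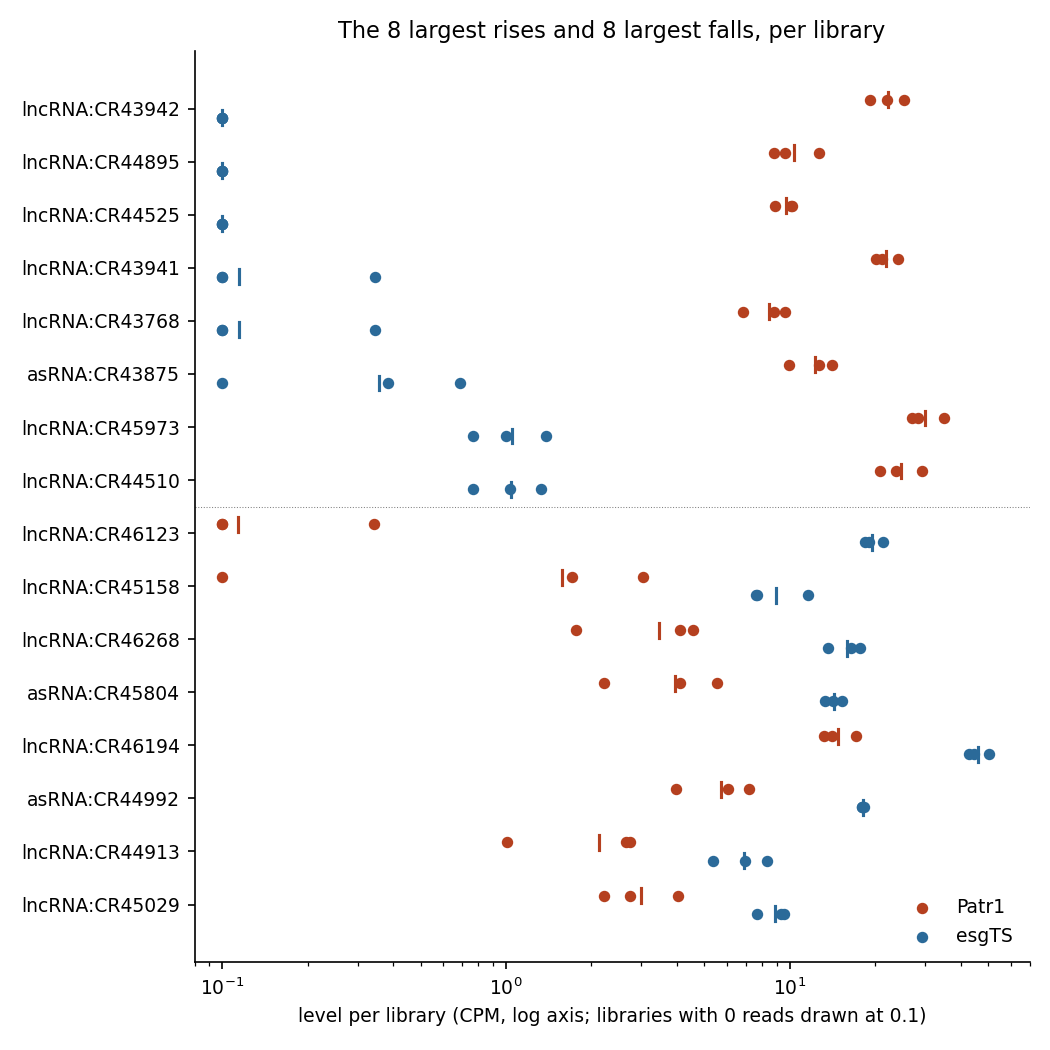
Level per library (CPM, log axis) of the 8 largest rises (upper rows) and the 8 largest falls (lower rows) among RNAs with at least 5 CPM in the higher genotype and no overlap between genotypes; ticks are genotype means, and libraries with 0 reads are drawn at 0.1. The fall of CR46123, 1 Patr1 read against 167 esgTS reads, is the one that matches the rises in size.

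Of 29 asRNAs tested, 2 were higher in Patr1, 14 were lower and 13 did not pass, with a median log2 fold change of -0.72. The share called was 55.2%, near the 49.4% of all genes tested, of which 25.5% were higher and 23.9% lower. DESeq2 called 1 asRNA higher and 10 lower. All 30 share exon bases with other genes, and whether reads were counted by strand is not stated in the sources at hand, so reads of an asRNA and of its coding partner cannot be told apart.

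Among the lower ones, CR45600 was at 31.3, 31.1 and 34.4 CPM in Patr1, against 56.3, 72.1 and 58.6 CPM in esgTS (log2 -0.95 ± 0.13 SE, edgeR adjusted p = 7.28e-05). Its coding partner CG3984, which covers 59.4% of its exon bases, had 0 reads in all libraries. CR44992, on the strand opposite Hnf4, a nuclear receptor of gut lipid and glucose metabolism, was at 5.74 ± 1.63 CPM in Patr1 and 18.07 ± 0.17 CPM in esgTS (n = 3 each, log2 -1.63 ± 0.26 SE, edgeR adjusted p = 0.000256). Hnf4 was lower as well, at 94.6 ± 11.7 CPM in Patr1 and 219.2 ± 19.6 CPM in esgTS (n = 3 each, log2 -1.22, edgeR adjusted p = 1.39e-06), and the pair shares 9.4% of the exon bases of the asRNA.

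CR44029, opposite the synaptic priming factor gene unc-13 on chromosome 4, was at 53.5, 52.7 and 37.1 CPM in Patr1, against 89.7, 95.004 and 73.9 CPM in esgTS (log2 -0.85 ± 0.14 SE, edgeR adjusted p = 0.000353). In contrast to Hnf4, unc-13 did not pass, at 758.1 ± 31.0 CPM in Patr1 and 709.2 ± 38.9 CPM in esgTS (n = 3 each, edgeR adjusted p = 0.370). CR45804 was at 5.55, 4.11 and 2.21 CPM in Patr1, against 14.2, 13.3 and 15.3 CPM in esgTS (log2 -1.85 ± 0.31 SE, edgeR adjusted p = 0.000376), and its partner CG6767 was lower by a smaller fold change (log2 -0.48 ± 0.09 SE, edgeR adjusted p = 0.000847). CR45129, which shares 60.7% of its exon bases with the neuronal adhesion gene Dscam1 on the other strand, was at 10.8 ± 2.68 CPM in Patr1 and 19.4 ± 3.08 CPM in esgTS (n = 3 each, log2 -0.87, edgeR adjusted p = 0.0103). Dscam1 itself was lower by a similar amount, at 990.6 ± 186.1 CPM in Patr1 and 1976 ± 156.7 CPM in esgTS (n = 3 each, log2 -0.996, edgeR adjusted p = 5.13e-05). The CR45129 call did not hold without Patr1 replicate 2 (log2 -0.66, edgeR adjusted p = 0.0593) or without esgTS replicate 2 (log2 -0.73, edgeR adjusted p = 0.0554).

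CR43875 was the larger of the 2 rises, at 12.6, 9.93 and 14.1 CPM in Patr1, against 0.69, 0 and 0.38 CPM in esgTS. It shares 50.8% of its exon bases with genes on the other strand, alphaSnap and the serpin gene Spn77Ba; alphaSnap, an adaptor of SNARE disassembly, was at 109.0 ± 4.07 CPM in Patr1 and 70.005 ± 3.81 CPM in esgTS (n = 3 each, log2 0.64, edgeR adjusted p = 6.60e-05). CR43957 was at 5.55, 6.16 and 6.62 CPM in Patr1, against 2.76, 2.99 and 1.53 CPM in esgTS (log2 1.30 ± 0.35 SE, edgeR adjusted p = 0.00922; DESeq2 adjusted p = 0.0856). Its partner ci, the transcription factor of Hedgehog signalling, went the other way, at 4.51 ± 1.84 CPM in Patr1 and 9.56 ± 2.05 CPM in esgTS (n = 3 each, log2 -1.03, edgeR adjusted p = 0.0245). The ci call did not hold without Patr1 replicate 1 (log2 -0.78, edgeR adjusted p = 0.0764), Patr1 replicate 3 (log2 -1.05, edgeR adjusted p = 0.0502), esgTS replicate 1 (log2 -0.86, edgeR adjusted p = 0.102) or esgTS replicate 2 (log2 -1.06, edgeR adjusted p = 0.0511), nor by DESeq2 (adjusted p = 0.0882). CR45140 had the next smallest p among the positive fold changes and did not pass (6.32 ± 0.68 CPM in Patr1 and 4.76 ± 1.82 CPM in esgTS, n = 3 each, edgeR adjusted p = 0.353), while its partner CG17574 was higher (log2 1.496 ± 0.10 SE, edgeR adjusted p = 2.87e-07).

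Position relative to coding genes was read from the BDGP6 annotation, whose exon lengths equal the deposited lengths for 199 of the 200. Of 53 tested lncRNAs with no coding gene on their span, 21 were higher in Patr1, 12 were lower and 20 did not pass, with a median log2 fold change of 0.24. Without the microRNA precursors among them, a set grouped after the values had been seen, 41 remained, of which 18 were higher and 6 lower. Leaving that set out took the share higher from 39.6% to 43.9% and the share lower from 22.6% to 14.6%. Of 66 tested RNAs inside an intron of a coding gene on the other strand, 10 were higher and 31 lower, with a median of -0.57. For 21 inside an intron on the same strand, 3 were higher, 4 lower and 14 did not pass. Of 57 that share exon bases with a coding gene, 5 were higher and 22 lower. Of all genes tested 25.5% were higher and 23.9% lower, and the sets were not tested against each other. Of 123 tested RNAs that share no exon base with any gene, 28 were higher and 40 lower.

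RNAs inside or overlapping a coding gene were set beside that gene, in 133 pairs with 126 coding genes where both were tested. Both passed in 37 pairs: 13 with both higher in Patr1, 19 with both lower, 4 with the non-coding RNA lower and the coding gene higher, and 1 the reverse, CR43957 with ci, neither of which passed by DESeq2 (adjusted p = 0.0856 for CR43957 and 0.0882 for ci). The RNA alone passed in 32 pairs, the coding gene alone in 39 and neither in 25. By pair, the coding gene was higher in 43 and lower in 33. Of all genes tested 49.4% passed, with 25.5% higher and 23.9% lower, so pairs in which both pass are common with or without a link. Whether 37 exceeds what those shares alone would give was not tested. Across 62 pairs of an RNA and the host whose intron holds it on the other strand, the log2 fold changes had a Spearman rho of 0.65 and a Pearson r of 0.92. The same values across 19 pairs on the same strand were 0.55 and 0.88, and across 51 pairs that share exon bases 0.44 and 0.42. All pairs come from the same 6 libraries, reads of an unspliced host transcript can fall on an RNA in its intron, on the host's strand in any case and on the other strand where strand is not used, and the pairs in CG40470 lie far from the rest.

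CG40470 was at 62.1, 84.5 and 57.8 CPM in Patr1, against 0.35, 0.33 and 0.38 CPM in esgTS (log2 7.43 ± 0.34 SE, edgeR adjusted p = 8.84e-09), and both of its intronic lncRNAs, CR43941 and CR43942, rose with it. The PDZ-domain gene bbg, at 566.3 ± 20.7 CPM in Patr1 and 113.0 ± 11.1 CPM in esgTS (n = 3 each, log2 2.33, edgeR adjusted p = 2.21e-09), likewise holds 2 of the RNAs, on opposite strands. CR46031, on the other strand, was at 33.8, 18.1 and 18.1 CPM in Patr1, against 7.59, 4.98 and 11.5 CPM in esgTS (log2 1.53 ± 0.33 SE, edgeR adjusted p = 0.00232). CR46032, on the same strand, was at 14.6, 12.3 and 13.7 CPM in Patr1, against 5.52, 3.32 and 4.596 CPM in esgTS (log2 1.58 ± 0.28 SE, edgeR adjusted p = 0.000566). Both RNAs rose without overlap between genotypes.

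The RNA CR43653, named Irar in the annotation, lies in an intron of InR, the insulin receptor gene, on the other strand. It was at 18.2, 16.1 and 8.83 CPM in Patr1, against 6.56, 6.98 and 8.81 CPM in esgTS (log2 0.95 ± 0.30 SE, edgeR adjusted p = 0.0201), with Patr1 replicate 3 close to esgTS replicate 3. A further lncRNA in an InR intron, CR44034, lies on the same strand as InR and did not pass, at 11.1, 16.8 and 18.1 CPM in Patr1, against 14.2, 14.3 and 24.1 CPM in esgTS (log2 -0.17 ± 0.27 SE, edgeR adjusted p = 0.631). InR was at 935.0 ± 76.1 CPM in Patr1 and 347.2 ± 16.5 CPM in esgTS (n = 3 each, log2 1.43, edgeR adjusted p = 1.33e-07). The CR43653 call did not hold by DESeq2 (adjusted p = 0.0582), nor without Patr1 replicate 1 (log2 0.78, edgeR adjusted p = 0.0625), Patr1 replicate 2 (log2 0.85, edgeR adjusted p = 0.0881), esgTS replicate 1 (log2 0.86, edgeR adjusted p = 0.0705) or esgTS replicate 2 (log2 0.90, edgeR adjusted p = 0.0633).

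Falls came in pairs too. CR45158 lies in an intron of CG32091, which was at 88.1 ± 8.46 CPM in Patr1 and 318.1 ± 12.6 CPM in esgTS (n = 3 each, log2 -1.86, edgeR adjusted p = 1.19e-08). DIP-iota, the host of CR44913, was at 7.75 ± 3.01 CPM in Patr1 and 22.9 ± 8.07 CPM in esgTS (n = 3 each, log2 -1.54, edgeR adjusted p = 0.00205). Other RNAs fell in hosts that did not pass. CR45805, in an intron of the kinase gene Pdk1, was at 19.7, 22.6 and 25.6 CPM in Patr1, against 64.9, 58.1 and 79.3 CPM in esgTS (log2 -1.56 ± 0.15 SE, edgeR adjusted p = 4.54e-06), while Pdk1 was at 748.8 ± 18.5 CPM in Patr1 and 750.0 ± 57.3 CPM in esgTS (n = 3 each, log2 0.00 ± 0.09 SE, edgeR adjusted p = 0.985). CR44756, in an intron of the membrane protein gene Gp150, was at 20.8 ± 4.02 CPM in Patr1 and 53.7 ± 2.26 CPM in esgTS (n = 3 each, log2 -1.35, edgeR adjusted p = 1.15e-05), and Gp150 did not pass (log2 0.10 ± 0.12 SE, edgeR adjusted p = 0.501).

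CR44331 and its host puc, the phosphatase that turns JNK signalling off, were 1 of 4 pairs with the RNA lower and the host higher. The others were CR44157 with smash (log2 -1.45 for the RNA and 0.29 for the host), CR45820 with Eip63E (log2 -1.43 and 0.31) and CR45480 with CG2924 (log2 -0.95 and 0.42). CR44331 was at 64.6, 45.9 and 60.5 CPM in Patr1, against 81.8, 66.4 and 101.1 CPM in esgTS (log2 -0.56 ± 0.16 SE, edgeR adjusted p = 0.0128), and puc was at 580.5 ± 50.04 CPM in Patr1 and 424.8 ± 49.3 CPM in esgTS (n = 3 each, log2 0.45, edgeR adjusted p = 0.00313). The call of CR44331 did not hold without Patr1 replicate 2 (log2 -0.40, edgeR adjusted p = 0.0836) or without esgTS replicate 3 (log2 -0.39, edgeR adjusted p = 0.0506). The lncRNA noe, which did not pass, lies in blot, a transporter gene that was higher in Patr1 (24.0 ± 9.85 CPM in Patr1 and 3.80 ± 1.01 CPM in esgTS, n = 3 each, log2 2.68, edgeR adjusted p = 6.14e-05).

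**Figure D5:**
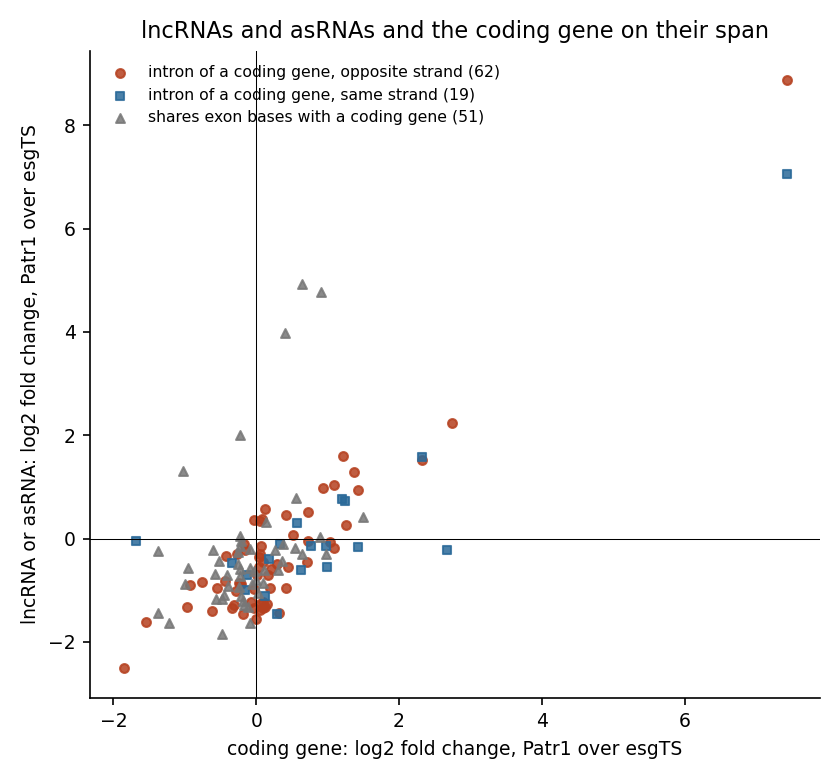
Log2 fold change (Patr1 over esgTS) of lncRNAs and asRNAs against that of the coding gene on their span, for 62 pairs in introns on the other strand (circles), 19 in introns on the same strand (squares) and 51 that share exon bases (triangles). The pairs at the upper right corner are CR43941 and CR43942 with CG40470 (log2 7.43 for the host), and many RNAs lie below 0 beside hosts near 0.

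The RNAs with no coding gene on their span were set beside the nearest coding gene, in 41 pairs where both were tested. Both passed in 19 pairs, and in 16 of these they went the same way, 12 higher and 4 lower in Patr1. The pairs held 39 coding genes, some of them counted more than once, and by pair the coding gene was higher in 15 and lower in 10. Of all genes tested 49.4% passed, with 25.5% higher and 23.9% lower, and the counts of pairs were not tested against these shares. On 3L, CR44510, CR44511 and CR43150 all have Lsp1gamma, a larval storage protein gene, as their nearest coding gene. CR44511 was at 25.7, 25.7 and 19.9 CPM in Patr1, against 1.73, 0.66 and 0.77 CPM in esgTS (log2 4.43 ± 0.35 SE, edgeR adjusted p = 8.25e-07). CR43150 was at 19.2, 19.2 and 17.2 CPM in Patr1, against 0.69, 0.66 and 1.15 CPM in esgTS (log2 4.42 ± 0.34 SE, edgeR adjusted p = 7.18e-07). CR44511 and CR43150 overlap each other on opposite strands, so that their reads may be shared. Lsp1gamma itself was at 141.3, 161.9 and 116.5 CPM in Patr1, against 14.8, 9.63 and 5.36 CPM in esgTS (log2 3.80 ± 0.22 SE, edgeR adjusted p = 4.84e-08).

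CR43144 was at 185.7, 160.5 and 139.0 CPM in Patr1, against 8.97, 8.97 and 7.66 CPM in esgTS, an 18.7-fold rise by fitted fold change (log2 4.23 ± 0.15 SE, edgeR adjusted p = 1.31e-09). Its nearest coding gene is Cul2, a cullin scaffold of ubiquitin ligases, at 637.0 ± 54.3 CPM in Patr1 and 197.4 ± 8.98 CPM in esgTS (n = 3 each, log2 1.69, edgeR adjusted p = 2.73e-08). CR43988 was at 57.0, 49.3 and 42.4 CPM in Patr1, against 1.73, 1.99 and 4.596 CPM in esgTS (log2 4.17 ± 0.27 SE, edgeR adjusted p = 1.62e-07), and the nearest coding gene, CG13405, was at 97.9 ± 5.45 CPM in Patr1 and 4.59 ± 2.34 CPM in esgTS (n = 3 each, log2 4.37, edgeR adjusted p = 9.47e-09). Each lncRNA and its neighbour had non-overlapping genotypes. CR44525, with 0 reads in esgTS, lies nearest to CG8560, which did not pass (10.9 ± 3.46 CPM in Patr1 and 7.33 ± 8.94 CPM in esgTS, n = 3 each, edgeR adjusted p = 0.458). Without esgTS replicate 1, CG8560 passed as higher (log2 2.34, edgeR adjusted p = 0.00219).

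On the X, CR15061 lies nearest to upd3 and CR45607 nearest to upd2, both cytokine genes of JAK/STAT signalling. CR15061 was at 17.2, 17.5 and 19.0 CPM in Patr1, against 4.14, 7.31 and 8.04 CPM in esgTS (log2 1.46 ± 0.27 SE, edgeR adjusted p = 0.000749), and upd3 was at 486.9 ± 68.9 CPM in Patr1 and 170.5 ± 24.0 CPM in esgTS (n = 3 each, log2 1.51, edgeR adjusted p = 1.04e-06). CR45607 was at 36.3, 22.9 and 32.2 CPM in Patr1, against 9.66, 12.6 and 28.3 CPM in esgTS, and upd2 was at 197.8, 78.0 and 140.8 CPM in Patr1, against 23.5, 41.9 and 94.98 CPM in esgTS. Both overlap between genotypes, with esgTS replicate 3 the highest of its group in each. CR45607 passed narrowly (log2 0.85 ± 0.32 SE, edgeR adjusted p = 0.0452), and did not without Patr1 replicate 1 (log2 0.72, edgeR adjusted p = 0.0811), Patr1 replicate 3 (log2 0.80, edgeR adjusted p = 0.102), esgTS replicate 1 (log2 0.57, edgeR adjusted p = 0.154) or esgTS replicate 2 (log2 0.68, edgeR adjusted p = 0.136). The value for upd2 was log2 1.37 ± 0.39 SE (edgeR adjusted p = 0.0121; DESeq2 adjusted p = 0.117).

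For 18 of the lncRNAs and asRNAs, a coding gene on the other strand starts within 1000 bases of their own start and points away. Of these, 6 were higher in Patr1 and 4 lower. The share called was 55.6%, near the 49.4% of all genes tested, of which 25.5% were higher and 23.9% lower. Among 16 pairs where both were tested, both passed in 6, with 5 in the same direction. CR43768 and CG13002 are such a pair: CG13002 was at 7.57, 6.50 and 5.74 CPM in Patr1 with 0 esgTS reads (edgeR adjusted p = 3.22e-05). CR46204 starts beside dl, an NF-kappaB factor gene, and was at 17.3 ± 3.76 CPM in Patr1 and 1.89 ± 0.88 CPM in esgTS (n = 3 each, log2 3.17, edgeR adjusted p = 1.60e-05); dl was at 250.1 ± 19.8 CPM in Patr1 and 141.3 ± 29.2 CPM in esgTS (n = 3 each, log2 0.82, edgeR adjusted p = 0.000157).

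For others the partner did not pass. CR44809, which starts beside Clamp, a zinc-finger protein gene of dosage compensation, was at 15.6, 9.93 and 9.71 CPM in Patr1, against 0.69, 0.66 and 0.77 CPM in esgTS (log2 3.95 ± 0.42 SE, edgeR adjusted p = 1.02e-05). Clamp was at 148.1 ± 5.47 CPM in Patr1 and 150.2 ± 8.54 CPM in esgTS (n = 3 each, log2 -0.02 ± 0.08 SE, edgeR adjusted p = 0.874). CR44895, with 0 esgTS reads, starts beside the ribosomal protein gene RpL17, at 300.2 ± 36.3 CPM in Patr1 and 332.3 ± 27.9 CPM in esgTS (n = 3 each, log2 -0.15, edgeR adjusted p = 0.238). Without Patr1 replicate 1, RpL17 passed as lower (log2 -0.24, edgeR adjusted p = 0.0479).

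Genes of proteins that process or bind non-coding RNA were counted list by list, beside the 49.4% of all genes tested that passed. Of 11 tested genes of the Integrator, which cleaves nascent non-coding transcripts, 7 were higher in Patr1 and 0 lower. IntS10 was at 93.1 ± 10.5 CPM in Patr1 and 38.5 ± 3.12 CPM in esgTS (n = 3 each, log2 1.28, edgeR adjusted p = 2.21e-06), and IntS9 was at 77.2 ± 4.28 CPM in Patr1 and 43.6 ± 1.51 CPM in esgTS (n = 3 each, log2 0.82, edgeR adjusted p = 2.5e-05). Of 11 genes of the nuclear exosome, which degrades nuclear RNA from its 3′ end, 2 were higher and 0 lower: Ski6 (log2 0.60, edgeR adjusted p = 0.00330) and Mtr3 (log2 0.45, edgeR adjusted p = 0.0135; without Patr1 replicate 2, log2 0.43 and edgeR adjusted p = 0.0537; DESeq2 adjusted p = 0.0954).

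Of 6 genes of nonsense-mediated decay, the cytoplasmic pathway that removes transcripts without a normal stop codon context, 1 was higher and 4 lower. Smg5 was at 172.0 ± 13.2 CPM in Patr1 and 316.9 ± 15.8 CPM in esgTS (n = 3 each, log2 -0.88, edgeR adjusted p = 4.07e-06), and Smg6 was at 106.5 ± 12.9 CPM in Patr1 and 163.4 ± 11.0 CPM in esgTS (n = 3 each, log2 -0.63, edgeR adjusted p = 0.000236). Of 10 genes of decapping and 5′ to 3′ decay, 3 were higher and 2 lower, Patr-1 among the lower and Ge-1 among the higher (log2 0.33, edgeR adjusted p = 0.00873). Of 7 genes listed for omega speckles, 1 was higher, pea (log2 0.42, edgeR adjusted p = 0.000561), and 2 were lower, nonA among them (log2 -0.58, edgeR adjusted p = 0.000256). The gene pea encodes a splicing helicase and is not an hnRNP gene, so its place on the list is doubtful. No other gene of that list was higher. Of the 5 protein genes of the dosage compensation complex, 1 was higher and 2 lower, mle (log2 -0.60, edgeR adjusted p = 6.42e-05) and msl-1 (log2 -0.34, edgeR adjusted p = 0.00388).

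Markers of other cell types were read from the same libraries, beside the 25.5% of all genes tested that were higher and the 23.9% that were lower. Of 5 tested visceral muscle markers 3 were higher in Patr1 (bt, sls and Zasp52) and 0 lower, while Mhc (log2 0.29) and up (log2 -0.28) did not pass. Of the muscle markers not tested, Mlp60A had 5 reads in Patr1 and 14 in esgTS, and Act57B had 14 in Patr1 and 10 in esgTS. The muscle list summed to 327 to 422 CPM in Patr1 and 134 to 137 CPM in esgTS. Of 4 tested hemocyte markers, 2 were higher and 2 lower. The collagen genes Col4a1, at 78.1 ± 21.1 CPM in Patr1 and 0.83 ± 0.27 CPM in esgTS, and vkg, at 46.7 ± 13.6 CPM in Patr1 and 1.51 ± 0.32 CPM in esgTS, were higher (n = 3 each, log2 6.49 and 4.89). The more abundant srp and crq were lower (log2 -0.71 and -0.38), so that the list summed to 325 to 397 CPM in Patr1 and 293 to 332 CPM in esgTS. Of the hemocyte markers not tested, Hml had 15 reads in Patr1 and 2 in esgTS, Ppn had 29 in Patr1 and 13 in esgTS, and NimC1 had 0 in both.

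Of 7 enterocyte markers 6 were higher, Mal-A1 (log2 2.27) and nub (log2 1.48) among them, and Myo31DF, the most abundant, was lower at 336.2 ± 20.9 CPM in Patr1 and 486.2 ± 29.9 CPM in esgTS (n = 3 each, log2 -0.53). The enterocyte list summed to 568 to 615 CPM in Patr1 and 562 to 625 CPM in esgTS. Of 6 tested enteroendocrine markers 2 were higher (AstA and CCHa1) and 0 lower. The other 4 did not pass: AstC (log2 -0.34), Tk (log2 -0.91), NPF (log2 -0.13) and pros (log2 0.12). The enteroendocrine list summed to 114 to 246 CPM in Patr1 and 189 to 213 CPM in esgTS. Germline markers summed to 19.9 to 26.7 CPM in Patr1 and 2.99 to 5.18 CPM in esgTS. That sum rests mainly on vas, at 16.1 ± 3.14 CPM in Patr1 and 0.46 ± 0.17 CPM in esgTS (n = 3 each, edgeR adjusted p = 1.32e-06). Another germline gene, aub, did not pass (edgeR adjusted p = 0.0859), and osk, nos and bam had 1, 4 and 1 reads in Patr1 and 0, 2 and 0 reads in esgTS. Some markers of muscle, enterocytes and enteroendocrine cells, the collagen genes and vas were thus higher in Patr1. Others on the same lists were lower or did not pass, and the enterocyte, enteroendocrine and hemocyte sums overlapped between genotypes. The part of such cells in the rises of the lncRNAs described above was not tested.

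At the limit of 60 summed reads, the RNAs just inside were CR43768, with 60, and CR45196, with 61. CR45196 was at 2.04 ± 1.36 CPM in Patr1 and 5.50 ± 0.64 CPM in esgTS (SD, n = 3 each). Just outside, at 59 summed reads, were CR42719, CR43963, CR44302, CR45082, CR46041 and the asRNA CR45907. Of these, CR43963 had 10 reads in Patr1 and 49 in esgTS, CR45907 had 13 in Patr1 and 46 in esgTS, and CR42719 had 28 in Patr1 and 31 in esgTS. Inside and outside the limit, then, lay RNAs with most of their reads in 1 genotype and RNAs with reads in both. The RNAs left untested by the filter were the asRNA CR45908, with 2, 10 and 3 reads in Patr1 and 25, 9 and 32 reads in esgTS, and CR46102, with 7, 7 and 11 reads in Patr1 and 9, 10 and 19 reads in esgTS.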

How the data were processed

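RNA from GFP-positive progenitors was sequenced in 3 Patr1 and 3 esgTS libraries. Per the file headers, the deposited values are raw read counts for each gene beside its length. Per the submitters' processing notes, the tools were Subread 2.0.0 (featureCounts), SAMtools 1.10, STAR 2.7.3a, DESeq2 and cutadapt 2.9. Build, annotation and strand setting: not given in the sources used here. For that reason coordinates are left out. The authors' comparison table was not used for these RNAs, and no sequences were used here. One row had no gene name (at most 0.00296% of reads) and was left out.

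Counts of all 17806 named genes were tested with edgeR 4.0.16 in R 4.3.3 (quasi-likelihood test, TMM factors, default filter by genotype with a minimum count of 10), with Benjamini-Hochberg adjustment over 7927 genes at 0.05. CPM use TMM-scaled library sizes, and RPKM divide these by the deposited length. The floor of detection, 3 counts, was 1.03 to 1.51 CPM in Patr1 libraries and 0.997 to 1.15 CPM in esgTS libraries. The procedure was checked on simulated data, with known changes placed only in genes with more reads. Recovery of changes in RNAs with few reads was thus not checked. Positions, exon overlaps and microRNA genes were read from the BDGP6 annotation of Ensembl, with Python 3.11.15, pandas 2.3.3 and SciPy 1.17.1; plots were drawn with matplotlib 3.10.9.

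The RNAs and the gene lists were chosen with earlier results of these data known. RNAs were named by rule: those with known roles, the 8 largest rises and 8 largest falls of called RNAs with at least 5 CPM in the higher genotype and no overlap, the 3 most abundant per length, the 3 asRNAs with the smallest p in each direction, their exon-sharing coding genes, those at the limit, and up to 2 genes by p in each other list. MicroRNA precursors, further neighbours, hosts, cell type markers and the alphagamma-element RNA were chosen with their values in view. The alternatives were DESeq2 1.42.0, upper-quartile factors, library totals, no filter, a filter blind to genotype, a replicate block, and leaving out each library.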

Additional observations from a re-analysis of the deposited data

Results flagged for a closer look

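The row of the count table with no gene name, which entered no comparison, took 0.00226%, 0.00283% and 0.00296% of reads in Patr1 replicates 1, 2 and 3, above the esgTS libraries, where it took at most 3.38e-05%.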

How the results depend on the processing

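Counts of higher and lower RNAs stayed within 1.5 times the reported ones under all 12 alternatives, except that DESeq2 called 1 asRNA higher in place of 2. Leaving out 1 library at a time gave 35 to 41 RNAs higher and 57 to 68 lower (33 to 39 and 46 to 54 lncRNAs, 2 and 10 to 14 asRNAs) and a median log2 fold change of -0.38 to -0.32. Of the 109 RNAs called, 72 were called in every alternative that tested them and 0 changed sign. With the replicate block, 38 were higher and 69 lower. Deviations of same-numbered libraries correlated at 0.05, 0.20 and -0.04, within the range of -0.30 to 0.21 for libraries of different number. Whether the numbers pair the samples cannot be told from these few values. CR42862 passed with the block (log2 -0.22, edgeR adjusted p = 0.0467). Of 121 named genes followed through the alternatives, 20 changed call in some alternative. A smaller share was called at low depth: of 53 tested RNAs with 60 to 99 summed reads, 6 were higher and 10 lower, and of 15 with 1000 or more, 2 were higher and 9 lower.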
